A study of Mus musculus with 16 samples.

Results

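Genes that detect nucleic acids in the wrong place in the cell, or that pass on, limit or carry out that signal, were followed in primary mammary tumors of mice. The set was a named list of 10 genes: *Cgas*, *Sting1* and *Trex1* of the DNA branch, *Ddx58* (also named *Rigi*), *Ifih1*, *Mavs* and *Tlr3* of the RNA branch, and *Zbp1*, *Adar* and *Eif2ak2*, whose products bind RNA or DNA in the double helix or in its left-handed Z form. All 10 were found by symbol among the 23609 genes of the table, and all 10 had a mean value high enough to be tested. The rule that names them uses no measured value. Total RNA was sequenced from tumors of wildtype x PyMT mice and of gene trap x PyMT mice, which are littermates. All animals of both groups carried MMTV-PyMT, a transgene that expresses the polyoma middle T antigen from a promoter active in mammary epithelium, and the gene trap animals were also heterozygous for a lentiviral EGFP/Cre enhancer and gene trap insertion in the first exon of *Resf1*. The gene trap arose on C57BL/6 and the transgene on FVB, so the tumors came from F1 animals of this cross, taken at the endpoint of the tumor study with no treatment and no age in the labels. Of the 8 tumors per group in the labels, 5 wildtype and 5 gene trap tumors had a column of their own and were analysed here.

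DNA in the cytosol is bound by CGAS, which makes the cyclic dinucleotide cGAMP, and cGAMP activates STING1 on the endoplasmic reticulum. RNA in the cytosol is bound by the helicases RIG-I (from *Ddx58*) and MDA5 (from *Ifih1*), which both signal through MAVS on mitochondria, while TLR3 reads RNA inside endosomes. Each route leads to interferon and to interferon-stimulated genes, and several of the sensor genes are themselves induced by interferon. TREX1, which degrades DNA, and ADAR, which edits adenosine to inosine, keep the cell's own nucleic acids from being sensed, and resident cells of a mammary tumor, such as macrophages, also carry this machinery.

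Sequence around the start site is shown for the sensor genes whose promoter window held an interferon-stimulated response element, the site to which interferon-activated factors bind. The motif searched was GAAANNGAAAC on both strands, in RefSeq windows of GRCm38.p6 that run from 250 bases before to 50 bases after each start site. Such a window was available for 8 of the 10 sensor genes, and *Ddx58*, *Ifih1* and *Eif2ak2* (37.5% of the 8) held the motif. It was found in 42.1% of the 19 interferon-stimulated genes with a window and in 0.944% of all 27025 genes. Each run of 30 bases is given 5′ to 3′ on the strand of the gene, with the motif in capitals.
Ddx58: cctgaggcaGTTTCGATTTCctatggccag
Ifih1: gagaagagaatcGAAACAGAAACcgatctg
Eif2ak2: gtccgccggGAAAACGAAACagaagagaac
All 3 genes lie on the minus strand, the *Ddx58* run at chr4:40239804-40239833, the *Ifih1* run at chr2:62646206-62646235 and the *Eif2ak2* run at chr17:78882534-78882563. The motif lay on the strand of the gene in *Ifih1*, at bases 33 to 43, and in *Eif2ak2*, at bases 19 to 29, counted from 1 at the first base after the 250 upstream bases. In *Ddx58* it lay on the opposite strand, at bases 2 to 12. A match is a description of these letters and not evidence of binding.

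The values are estimated counts that the authors had normalized between tumors, called normalized values here, and a log2 fold change compares gene trap with wildtype tumors after addition of a pseudocount of 1. Column totals lay between 31995078 and 42153593, and the depth of sequencing behind them is unknown. *Resf1* (ENSMUSG00000032712), the gene that carries the trap, had a log2 fold change of -0.22 ± 0.09 (SE, limma, unadjusted p = 0.0313, adjusted p = 0.9997; exact permutation p = 0.0635), and its groups overlapped. Gene trap replicate 2 was far from all other tumors, at 91.8 on a first principal component on which the others lay between -18.6 and -4.8, and its 20 most abundant genes took 36.6% of its total, against 21.2% to 29.0% elsewhere. Luminal epithelial markers were abundant in every tumor, with sums between 124023 and 160625. Because tumors were sequenced whole, fewer cells of a type and less RNA per cell cannot be told apart.

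No sensor gene differed between the groups after adjustment over the 21034 tested genes. *Tlr3* was the 1 sensor gene of 10 with an unadjusted p under 0.05, where 2.28% of all tested genes had one, and its estimate was lower in gene trap tumors. Estimates lay below 0 for 6 sensor genes and above 0 for 4, and 48.6% of all tested genes had an estimate below 0. In none of the 10 did the 5 gene trap values lie wholly apart from the 5 wildtype values, which was the case for 0.528% of all tested genes. The median log2 fold change of the sensor genes was -0.07, and that of all tested genes was 0.005. With limma 0 of all tested genes (0%) had an adjusted p under 0.05, and 479 had an unadjusted p under 0.05, 278 of them higher and 201 lower in gene trap tumors.

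**Figure D1:**
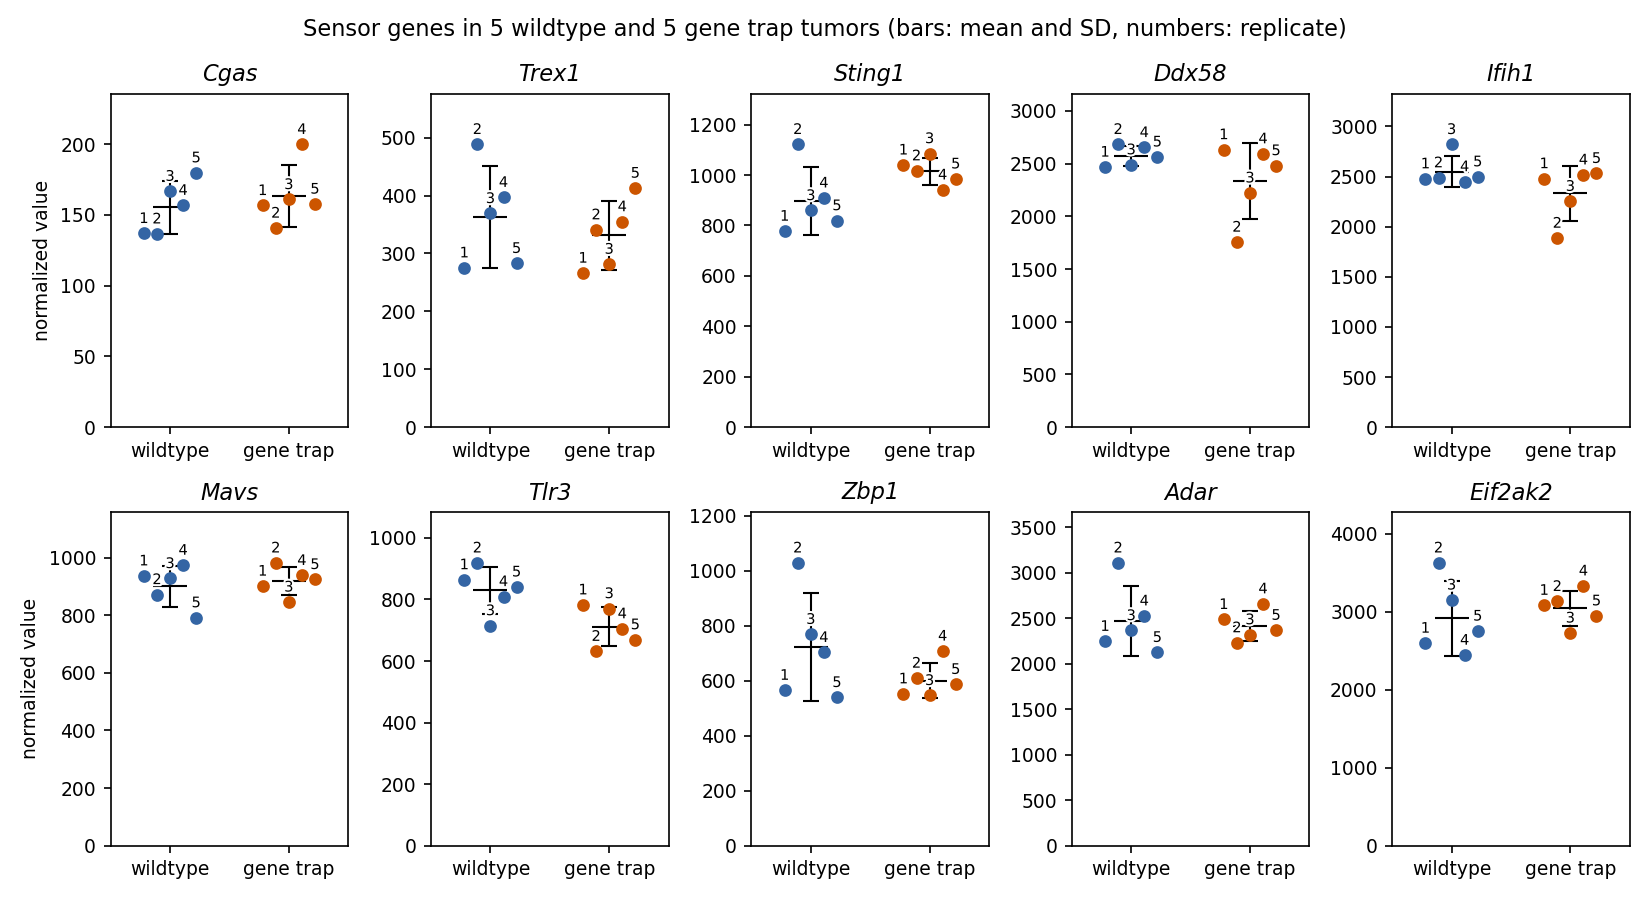
Normalized value (y axis, linear from 0) of each of the 10 sensor genes in 5 wildtype (blue) and 5 gene trap (orange) tumors. Points are tumors with their replicate number, and bars give the mean and SD. The *Tlr3* values of gene trap tumors, 632 to 783, lay below the wildtype median, the *Sting1* values, 941 to 1085, lay above 4 of the 5 wildtype values, and in every panel the groups overlapped.

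Per kilobase of the longest annotated transcript, *Eif2ak2* had the highest mean level of the 10 genes, though not in every tumor, and *Cgas* the lowest. *Eif2ak2* reached 691 ± 83.1 normalized units per kilobase (SD, n = 10 tumors) and *Ddx58* 633 ± 71.9, above 85.0% and 83.4% of the 20536 tested genes with a known length. *Ifih1* (446 ± 43.5), *Sting1* (416 ± 49.8) and *Adar* (414 ± 47.5) followed per kilobase, then *Trex1* (320 ± 67.0) and *Mavs* (297 ± 19.2). *Zbp1* stood at 199 ± 45.7, *Tlr3* at 175 ± 20.6 and *Cgas* at 39.3 ± 4.87 per kilobase, above 27.9% of genes. The ranges of *Cgas* and *Tlr3* per kilobase did not overlap, whereas the ranges of all other neighbors in this order overlapped over the 10 tumors. *Eif2ak2* exceeded *Ddx58*, and *Ifih1* exceeded *Sting1*, in 7 of 10 tumors. *Sting1* exceeded *Adar* in 4 of 10 tumors, *Trex1* exceeded *Mavs* in 6 and *Zbp1* exceeded *Tlr3* in 6, so none of these 5 pairs had an order beyond its spread. *Ddx58* exceeded *Ifih1*, and *Adar* exceeded *Trex1*, in all 10 tumors. The level of *Trex1* is uncertain because its 1147 annotated exon bases are all shared with *Atrip*, a gene on the same strand, which had a mean normalized value of 684.8.

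In the DNA branch, *Cgas* (ENSMUSG00000032344), which encodes the sensor itself, had normalized values of 137, 137, 167, 157 and 180 in wildtype replicates 1 to 5. It had 157, 141, 161, 200 and 158 in gene trap replicates 1 to 5, and tumors are listed in this order throughout. Gene trap replicate 4 was the highest tumor, the lowest 2 were wildtype, and the remaining values overlapped. The log2 fold change was 0.07 ± 0.14 (SE, exact permutation p = 0.579; limma, adjusted p = 0.9997), and its 95% interval of -0.23 to 0.36 covers folds from 0.855 to 1.29. Its estimate moved to -0.01 when gene trap replicate 4 was left out.

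*Sting1* (ENSMUSG00000024349), the adaptor that cGAMP activates, was the sensor gene with the highest log2 fold change. Its normalized values were 778, 1121, 859, 909 and 819 in wildtype tumors. In gene trap tumors they were 1040, 1017, 1085, 941 and 985. All 5 gene trap tumors lay above 4 of the wildtype tumors, and wildtype replicate 2 lay above all gene trap tumors. The means were 897 ± 134 (SD, n = 5) and 1014 ± 54.6 (SD, n = 5), a log2 fold change of 0.19 ± 0.10 (SE, 95% interval -0.03 to 0.40; limma, unadjusted p = 0.0841, adjusted p = 0.9997; exact permutation p = 0.0952, where the smallest possible is 0.00794). Without wildtype replicate 2 the log2 fold change of *Sting1* was 0.27 (limma, unadjusted p = 0.00594, adjusted p = 0.9892), and the unadjusted p was under 0.05 only there and with gene trap replicate 2 also left out (0.27, unadjusted p = 0.00698), of 20 alternatives.

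*Trex1* (ENSMUSG00000049734), the exonuclease that clears cytosolic DNA, had normalized values of 275, 488, 369, 397 and 283 in wildtype and 266, 341, 282, 355 and 413 in gene trap tumors. Values varied 1.84-fold over the 10 tumors, and tumors of both groups lay at each end of the range. Its log2 fold change was -0.11 ± 0.18 (SE, 95% interval -0.50 to 0.27; exact permutation p = 0.556). It came to 0.001 without wildtype replicate 2, the tumor with the highest value, and to -0.205 without wildtype replicate 1. The shared exons with *Atrip* apply here as well.

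Among the sensors of RNA in the cytosol, both helicases had their lowest value in the same tumor. *Ddx58* (ENSMUSG00000040296), which encodes RIG-I, had normalized values of 2467, 2682, 2489, 2653 and 2564 in wildtype and 2632, 1755, 2222, 2593 and 2482 in gene trap tumors. Gene trap replicates 2 and 3 lay below every wildtype tumor, and the other 3 gene trap tumors fell within the wildtype range. The log2 fold change was -0.15 ± 0.10 (SE, 95% interval -0.38 to 0.07; exact permutation p = 0.214; limma, adjusted p = 0.9997), and without gene trap replicate 2 it was -0.05.

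*Ifih1* (ENSMUSG00000026896), which encodes MDA5, had normalized values of 2479, 2489, 2821, 2450 and 2499 in wildtype and 2480, 1886, 2254, 2517 and 2533 in gene trap tumors. Gene trap replicates 2 and 3 were again below all wildtype tumors, while wildtype replicate 3 was the highest and the other 7 tumors lay between 2450 and 2533. Its log2 fold change was -0.13 ± 0.09 (SE, 95% interval -0.33 to 0.06; exact permutation p = 0.262; limma, adjusted p = 0.9997), or -0.06 without gene trap replicate 2.

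*Mavs* (ENSMUSG00000037523), the adaptor of both helicases, varied least among the 10 tumors, 1.24-fold from lowest to highest. Normalized values were 937, 872, 928, 974 and 792 in wildtype and 901, 982, 846, 938 and 924 in gene trap tumors. The groups overlapped over nearly their whole range. The log2 fold change was 0.03 ± 0.08 (SE, exact permutation p = 0.667), and the 95% interval of -0.14 to 0.20 covers folds from 0.908 to 1.15. With wildtype replicate 5 left out it was -0.02.

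*Tlr3* (ENSMUSG00000031639), the endosomal receptor for RNA in the double helix, had the smallest p of the 10 genes. Its normalized values were 864, 919, 715, 810 and 841 in wildtype tumors and 783, 632, 771, 705 and 670 in gene trap tumors. Gene trap replicates 2, 4 and 5 lay below every wildtype tumor, and all 5 gene trap tumors lay below the wildtype median. The other 2 gene trap tumors overlapped only with wildtype replicate 3. *Tlr3* averaged 830 ± 75.5 (SD, n = 5) in wildtype against 712 ± 64.7 (SD, n = 5) under the gene trap, a change of -14.2% in the geometric mean. The log2 fold change was -0.22 ± 0.09 (SE, 95% interval -0.42 to -0.02; limma, unadjusted p = 0.0334, adjusted p = 0.9997; exact permutation p = 0.0397). The estimate remained below 0 in all 20 alternatives, with an unadjusted limma p between 0.0125 and 0.143 that was under 0.05 in 10 of them. It was above 0.05 when wildtype replicate 1, 2 or 5 or gene trap replicate 2, 4 or 5 was left out, and highest among these, 0.0829, without wildtype replicate 2. With all 10 tumors kept, the unadjusted limma p was also above 0.05 with equal column totals (0.0906), tumor weights (0.0935) and a replicate block (0.0711). Without both wildtype replicate 2 and gene trap replicate 2 the log2 fold change of *Tlr3* was -0.14.

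The other 3 genes encode proteins that bind nucleic acids in the double helix or in the Z form, and none had an unadjusted p under 0.05. *Zbp1* (ENSMUSG00000027514), a Z-nucleic acid sensor that can start necroptosis, had normalized values of 566, 1029, 769, 703 and 540 in wildtype and 553, 610, 547, 709 and 587 in gene trap tumors. Wildtype replicate 2 was far above the rest, and every gene trap tumor lay within the wildtype range. The log2 fold change was -0.23 ± 0.16 (SE, 95% interval -0.58 to 0.12; exact permutation p = 0.278; limma, adjusted p = 0.9997), and -0.09 without wildtype replicate 2.

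*Adar* (ENSMUSG00000027951), the editing enzyme, had normalized values of 2247, 3109, 2366, 2527 and 2126 in wildtype and 2488, 2232, 2321, 2660 and 2370 in gene trap tumors. The highest and the lowest value were both in wildtype tumors, replicates 2 and 5. Its log2 fold change was -0.03 ± 0.10 (SE, 95% interval -0.24 to 0.19; exact permutation p = 0.833), and it was 0.06 without wildtype replicate 2. Of its 8118 annotated exon bases, 1365 are shared with *Chrnb2* on the other strand, which had a mean value of 124.7, and whether the counting used strand is not given in the sources used here.

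*Eif2ak2* (ENSMUSG00000024079) encodes the kinase PKR, which phosphorylates eIF2alpha and stops translation when RNA in the double helix is present. Its normalized values were 2599, 3629, 3154, 2445 and 2755 in wildtype and 3085, 3135, 2730, 3334 and 2951 in gene trap tumors. All gene trap tumors lay within the wildtype range, which ran from replicate 4 to replicate 2. The log2 fold change was 0.07 ± 0.11 (SE, 95% interval -0.15 to 0.30; exact permutation p = 0.516). With 1 tumor left out it ran from 0.015 without wildtype replicate 4 to 0.157 without wildtype replicate 2. Of the 3 genes with the motif shown above, *Ddx58* and *Ifih1* thus had estimates below 0 and *Eif2ak2* one above 0, with intervals that all include 0.

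**Figure D2:**
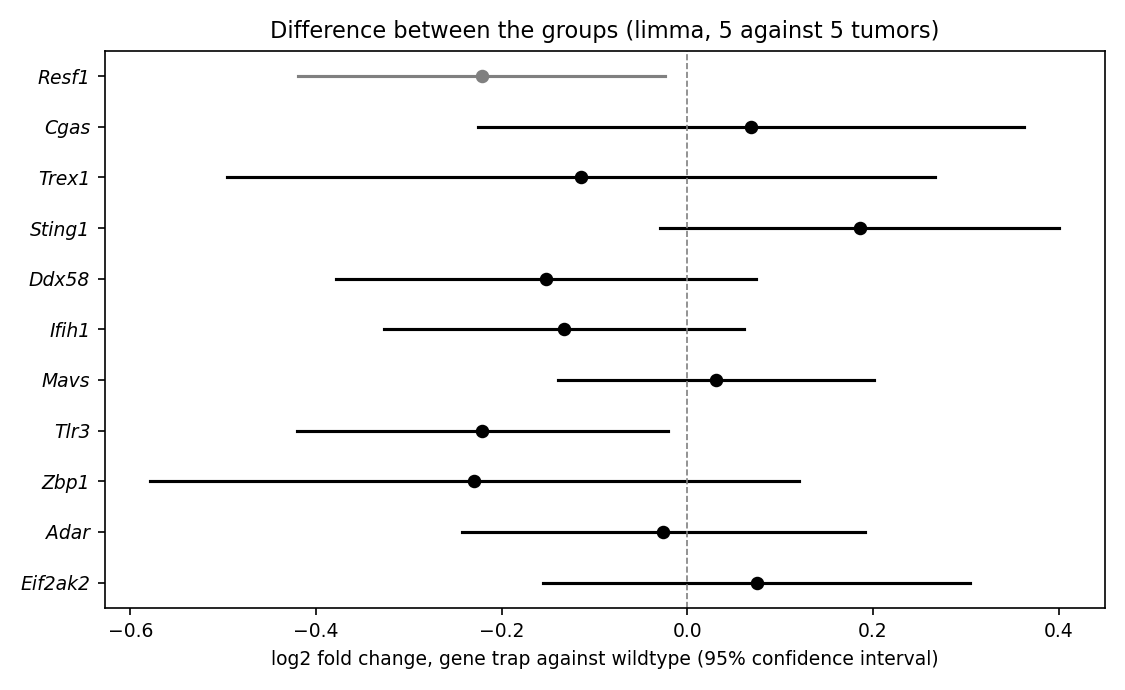
Log2 fold change of gene trap against wildtype tumors (x axis) for *Resf1* (gray) and the 10 sensor genes (black), as estimated by limma from 5 against 5 tumors, with 95% confidence intervals. The intervals of *Resf1* (-0.42 to -0.02) and *Tlr3* (-0.42 to -0.02) leave out 0 before adjustment, and the other 9 include it.

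Other genes of the same pathways were taken from lists by function, and no gene on them had an adjusted p under 0.05. Among 14 further genes of RNA sensing, 7 had estimates below 0 and 7 above, with a median log2 fold change of -0.01. *Oas3*, which makes the oligoadenylate that activates RNase L, was the 1 with an unadjusted p under 0.05. It stood at 153 ± 51.6 (SD, n = 5) in wildtype against 105 ± 19.7 (SD, n = 5) under the gene trap (log2 fold change -0.51 ± 0.21 SE, limma, unadjusted p = 0.0290, adjusted p = 0.9997). Among 11 further genes of DNA sensing and DNA removal, 8 were below 0 and 3 above, with a median of -0.01 and 0 with an unadjusted p under 0.05. *Enpp1*, which hydrolyzes cGAMP outside the cell, had the smallest p there (-0.15 ± 0.10 SE, limma, unadjusted p = 0.156). The 13 kinases and transcription factors downstream split 6 below and 7 above 0, with a median of 0.004, and *Ikbkb*, a kinase upstream of NF-kappaB, came first with 0.05 ± 0.06 (SE, limma, unadjusted p = 0.409). Of 5 listed partners of *Zbp1* in cell death, which do not all promote necroptosis, 3 lay below and 2 above 0, and *Mlkl*, which permeabilizes the membrane, had -0.12 ± 0.14 (SE, limma, unadjusted p = 0.412). In the eIF2alpha branch, where *Eif2ak2* acts, 3 of 7 genes lay below and 4 above 0, with *Atf4*, the transcription factor of the integrated stress response, at 0.34 ± 0.18 (SE, limma, unadjusted p = 0.0817).

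Of 20 listed interferon genes, receptors and associated genes, 12 were among the table's gene IDs and 11 were tested, with 9 estimates below 0 and 2 above and a median log2 fold change of -0.08. No interferon gene itself was tested, as those listed were absent or had a mean value under 10. The 11 were receptors and the kinases and transcription factors that act after them. Of the 24 interferon-stimulated genes, none of which is a sensor of the set, all 24 had estimates below 0 when all 10 tumors were used, as had 48.6% of all tested genes. The median of the 24 was -0.26, and values ran from -0.61 for *Rsad2*, an antiviral enzyme, to -0.02 for *Cxcl10*, a chemokine. *Herc6*, which attaches ISG15 to proteins in mice, was the 1 gene with an unadjusted p under 0.05 (-0.24 ± 0.10 SE, limma, unadjusted p = 0.0281, adjusted p = 0.9997), at 836 ± 55.4 (SD, n = 5) in wildtype against 710 ± 89.5 (SD, n = 5) under the gene trap. The summed level of the list was 17665 to 31948 (median 21826) in wildtype and 15846 to 22753 (median 21462) in gene trap tumors.

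The size of this median depended on single tumors, while at least 21 of the 24 estimates stayed below 0 with any 1 tumor left out. Of the 24 interferon-stimulated genes, 22 were highest in wildtype replicate 2, as were 10.3% of all tested genes, and 13 were lowest in gene trap replicate 2, as were 21.8%. The median log2 fold change of the 24 was -0.14 without wildtype replicate 2 (21 of 24 below 0), -0.20 without gene trap replicate 2 (23 of 24) and -0.04 without both (17 of 24). Without wildtype replicate 1, the wildtype tumor with the lowest values of this list as a whole, it moved the other way, to -0.41 with 24 of 24 below 0. In that fit 8 of the 24 had an unadjusted p under 0.05 by limma, as had 635 of all 20999 genes tested there. The 10 sensor genes had medians of 0.01 without wildtype replicate 2 (4 of 10 below 0), -0.03 without gene trap replicate 2 (5 of 10) and -0.01 without both (6 of 10). The removal of both tumors was chosen after the data were seen.

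**Figure D3:**
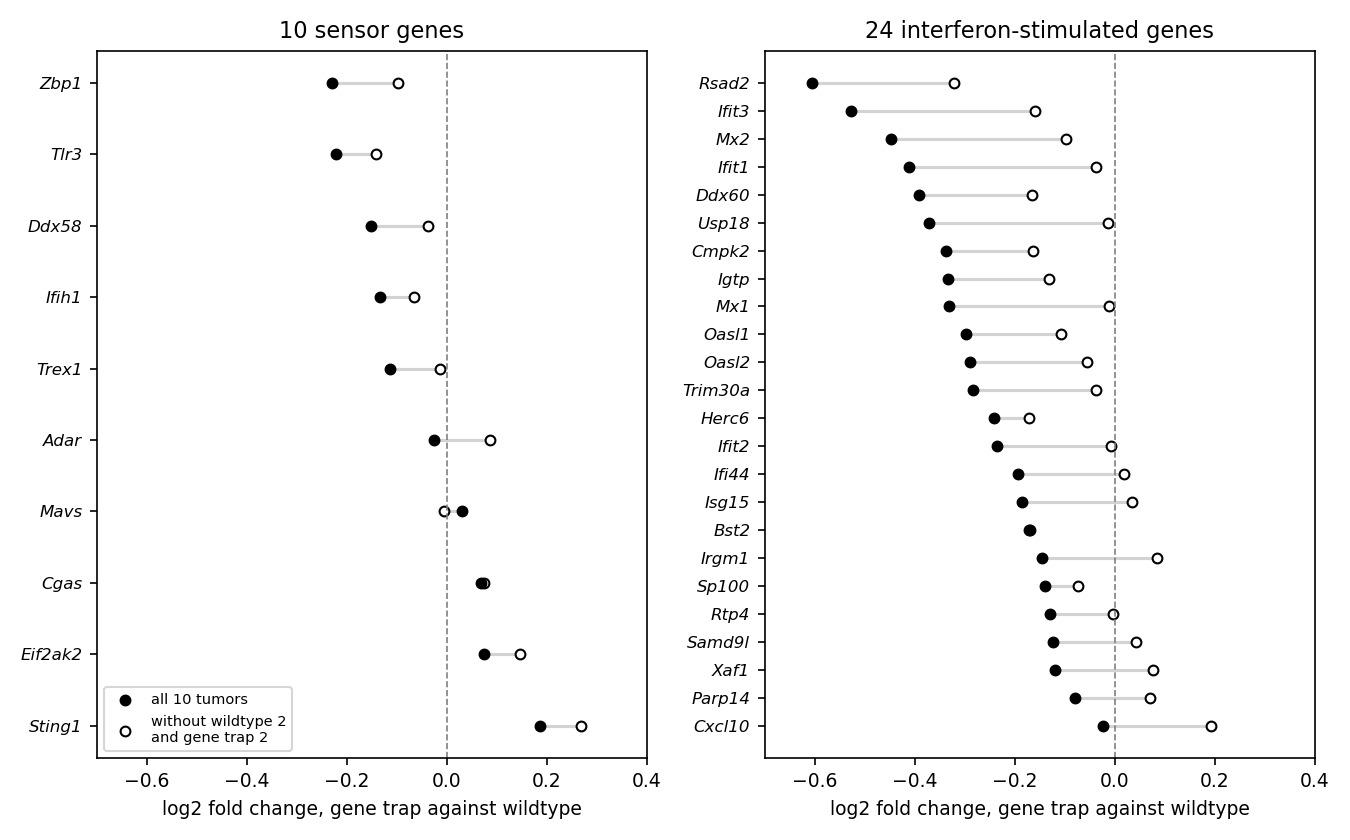
Log2 fold change of gene trap against wildtype tumors (x axis) for the 10 sensor genes (left) and the 24 interferon-stimulated genes (right), with all 10 tumors (filled circles) and without wildtype replicate 2 and gene trap replicate 2 (open circles). The interferon-stimulated genes moved toward 0, from a median of -0.26 to -0.04, whereas *Sting1* moved from 0.19 to 0.27.

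In the sensor genes, wildtype replicate 2 was the tumor most often at an end of the range. Wildtype replicate 2 held the highest value of 7 of the 10 genes, namely *Sting1*, *Ddx58*, *Zbp1*, *Tlr3*, *Adar*, *Eif2ak2* and *Trex1*, where 10.3% of all tested genes were highest in it, and it held the lowest value of *Cgas*. Gene trap replicate 2 held the lowest value of *Ddx58*, *Ifih1* and *Tlr3* and the highest of *Mavs*, where 21.8% of all tested genes were lowest and 22.4% were highest in it, so its 4 extremes were close to the share in all genes. Wildtype replicate 5 was lowest for *Mavs*, *Zbp1* and *Adar*. Over all 10 tumors the sensor genes had a median SD of 0.173 on the log2 scale, against 0.251 for all tested genes, which were not matched for level. The SD of *Zbp1* (0.295) and *Trex1* (0.294) lay above that of all tested genes, and the SDs of the other sensor genes lay below it. *Zbp1* spread most, 1.91-fold from lowest to highest, followed by *Trex1*.

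**Figure D4:**
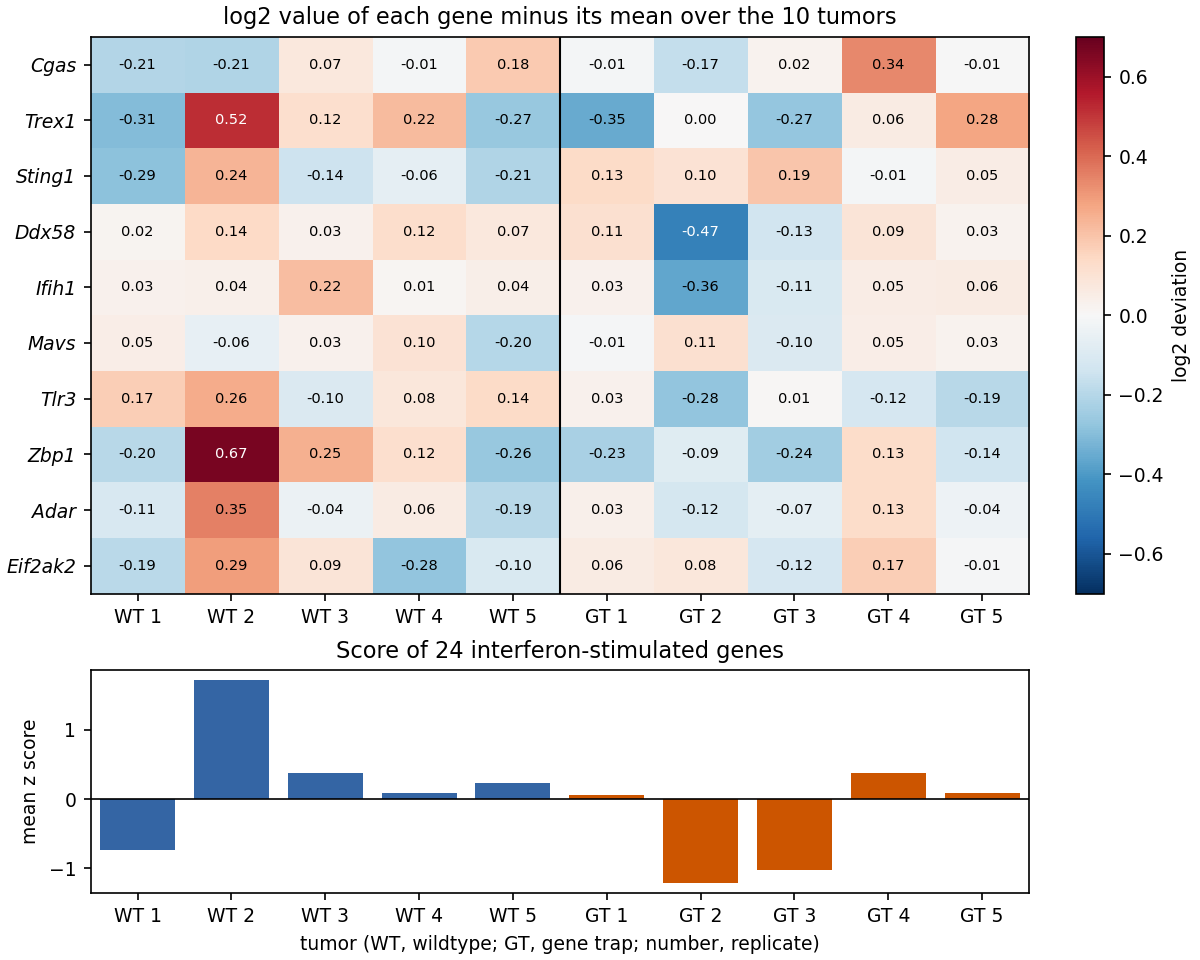
Upper panel, log2 value of each sensor gene minus its mean over the 10 tumors, with tumors in columns (WT, wildtype, and GT, gene trap, with replicate number) and the color scale in log2 units. Lower panel, mean z score of 24 interferon-stimulated genes in the same tumors. WT 2 had the highest score (1.72) and GT 2 the lowest (-1.21), *Zbp1* deviated by 0.67 in WT 2, and *Ddx58* by -0.47 in GT 2.

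A score was calculated for each tumor as the mean z score of the 24 interferon-stimulated genes, and it correlated with the level of several sensor genes before adjustment. The score was -0.74, 1.72, 0.38, 0.10 and 0.24 in wildtype tumors and 0.06, -1.21, -1.02, 0.38 and 0.10 in gene trap tumors. The coefficient was above 0 for 9 of the 10 genes and below 0 for *Mavs* (r = -0.24). *Ddx58* had r = 0.73 (permutation p = 0.0249, adjusted p = 0.332 over 120 pairs of a sensor gene and a list) and rho = 0.76 (permutation p = 0.0149), and r = 0.77 without wildtype replicate 2 and gene trap replicate 2, the 2 tumors farthest from the median score. *Ifih1* had r = 0.62 (permutation p = 0.0610, adjusted p = 0.488), rho = 0.71 (permutation p = 0.0272) and r = 0.71 without them. These were the 2 genes whose coefficient did not fall when both tumors were removed, among the 6 with r above 0.5, although without gene trap replicate 2 alone that of *Ifih1* was 0.44.

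*Zbp1* and *Adar* had the highest coefficients with the score over all tumors. For *Zbp1*, r was 0.76 (permutation p = 0.0134, adjusted p = 0.237), rho was 0.60 (permutation p = 0.0730) and r without the 2 tumors was 0.56. For *Adar*, r was 0.76 (permutation p = 0.0138, adjusted p = 0.237), rho was 0.61 (permutation p = 0.0668) and r without the 2 tumors was 0.35. *Trex1* had r = 0.64 (permutation p = 0.0461, adjusted p = 0.458), rho = 0.60 (permutation p = 0.0734) and 0.52 without the 2 tumors, and *Eif2ak2* had r = 0.54 (permutation p = 0.102, adjusted p = 0.590), rho = 0.54 (permutation p = 0.113) and 0.52. All 4 of these coefficients were lower with wildtype replicate 2 alone left out and the score calculated anew. There r was 0.47 for *Zbp1*, 0.47 for *Adar*, 0.38 for *Trex1* and 0.22 for *Eif2ak2*. For *Zbp1*, *Trex1* and *Eif2ak2* this was below the r without the 2 tumors, so the fall did not rest on wildtype replicate 2 alone. Within groups, with each group's mean removed, r was 0.71 for *Zbp1*, 0.80 for *Adar*, 0.68 for *Ddx58*, 0.54 for *Ifih1*, 0.62 for *Trex1* and 0.72 for *Eif2ak2*. The coefficients of the other genes changed widely with the tumors used. *Cgas* had r = 0.13 over all tumors and 0.60 without the 2 tumors, and with the score calculated anew 0.69 without wildtype replicate 2 alone (permutation p = 0.0419, adjusted p = 0.457). *Sting1* had r = 0.15 over all tumors, -0.18 without the 2 tumors and 0.51 within groups. *Tlr3* had r = 0.46 over all tumors and -0.41 without the 2 tumors, and *Mavs* turned from -0.24 to 0.17. None of the 120 coefficients r had an adjusted p under 0.05, and 13 had an unadjusted p under 0.05.

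Among the 45 pairs of sensor genes, 28 had r above 0, 5 had an unadjusted p under 0.05 and none passed adjustment (smallest adjusted p = 0.115, permutation). *Ddx58* and *Ifih1*, the paired helicases, had the highest coefficient, r = 0.86 (permutation p = 0.0113, adjusted p = 0.170), but rho was 0.31 (permutation p = 0.387) and r was -0.48 without gene trap replicates 2 and 3, and 0.39 without gene trap replicate 2 alone, so this relation rested on those 2 tumors. *Zbp1* and *Adar*, which both bind Z-form nucleic acids, had r = 0.84 (permutation p = 0.00625, adjusted p = 0.141), rho = 0.66 (permutation p = 0.0431) and r = 0.72 without wildtype replicates 2 and 3. *Zbp1* and *Trex1* had r = 0.83 (permutation p = 0.00255, adjusted p = 0.115), rho = 0.73 (permutation p = 0.0207) and r = 0.72 without the same tumors. With group means removed these last 2 pairs had r = 0.88 and 0.83, each with an adjusted p of 0.0418 by permutation. That p is approximate, because the permutation mixed tumors of both groups after their means were removed. Without wildtype replicate 2 alone the 2 pairs had r = 0.56 and 0.70. *Adar* and *Trex1* had r = 0.68 (permutation p = 0.0236, adjusted p = 0.265) and rho = 0.53 (permutation p = 0.123), with 0.37 left without the 2 tumors farthest from the median of *Adar* and 0.39 without wildtype replicate 2 alone. *Ddx58* and *Tlr3* had r = 0.61 (permutation p = 0.0466, adjusted p = 0.388) and rho = 0.53 (permutation p = 0.124), with 0.44 left without the 2 tumors farthest from the median of *Ddx58*, 0.28 without gene trap replicate 2 alone and 0.07 without both that tumor and wildtype replicate 2.

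Over the same 10 tumors, the genes most like each sensor gene were sought by Pearson's r of log2 values among 16173 genes with a mean of at least 50, as a description without a test. The highest of so many coefficients over 10 tumors can be large by chance alone. For the genes named, rho ran from 0.72 (*Cgas* with *Gm4739*) to 0.98 (*Ifih1* with *Creg1*). *Ddx58* was most like *Kpna2*, a nuclear import receptor (r = 0.975), and *Gm13092* (0.968), and *Ifih1* was most like *Creg1* (0.970) and *3110001I22Rik* (0.963). *Sting1* was most like *Map3k14*, the kinase of the noncanonical NF-kappaB pathway (0.934), and *Slfn4* (0.932). *Zbp1* was most like *Gna11* (0.932) and *Rabggta* (0.918), and *Rabggta* (0.942) was also among the genes most like *Adar*, beside *Ptges2* (0.946). *Trex1* was most like *Rab7*, a GTPase of late endosomes (0.960), and *Cdk16* (0.954). *Tlr3* was most like *Pak3* (0.949) and *Apold1* (0.922), *Eif2ak2* most like *Exosc1* (0.939) and *Kat14* (0.931), *Mavs* most like *Papss1* (0.917) and *Tmem184a* (0.917), and *Cgas* most like *Gm4544* (0.912) and *Gm4739* (0.875).

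Markers of the cell types in the tumor were set beside the sensor genes, with the most and then the least abundant gene of each list named. *Tlr3* varied with the score of 8 basal epithelial markers (r = 0.85, permutation p = 0.00208, adjusted p = 0.125, and rho = 0.89, permutation p = 0.00111, adjusted p = 0.0666), and r was 0.85 without the 2 tumors farthest from the median score and 0.69 within groups. All 8 basal markers had estimates below 0 in gene trap tumors (median log2 fold change -0.39), as had 48.6% of all tested genes. *Krt17* (-0.63), a keratin, and *Myh11* (-0.67), a smooth muscle myosin, had an unadjusted p under 0.05 by limma, as had 2.28% of all tested genes. Of the basal markers 0 had an adjusted p under 0.05 by limma. Their summed level was 7452 to 10277 in wildtype and 5537 to 7455 in gene trap tumors, with *Acta2*, an actin of contractile cells, the most abundant and *Cnn1*, calponin, the least. The part of these markers in the estimate of *Tlr3* was not tested.

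*Trex1* varied with the luminal epithelial score (r = 0.84, permutation p = 0.00323, adjusted p = 0.129, and rho = 0.82, permutation p = 0.00627, adjusted p = 0.188), with 6 of 10 luminal markers below and 4 above 0 between the groups, from *Ehf*, the most abundant, to *Cldn7*, the least. Beyond that score, *Trex1* ran against the B cell score (r = -0.72, permutation p = 0.0126, adjusted p = 0.237, and rho = -0.87, permutation p = 0.00211, adjusted p = 0.0844), which rests on 3 genes. With dendritic cell markers r was -0.75 (permutation p = 0.0129, adjusted p = 0.237), with T and NK cell markers -0.71 (permutation p = 0.0203, adjusted p = 0.305) and with fibroblast markers -0.63 (permutation p = 0.0497, adjusted p = 0.458). *Zbp1* also varied with the luminal score (r = 0.65, permutation p = 0.0359, adjusted p = 0.392, and rho = 0.72, permutation p = 0.0233, adjusted p = 0.296). *Cgas* varied with the skeletal muscle score (r = 0.69, permutation p = 0.0304, adjusted p = 0.365, and rho = 0.77, permutation p = 0.0118, adjusted p = 0.236). *Mavs* ran against the endothelial score (r = -0.85, permutation p = 0.00114, adjusted p = 0.125, and rho = -0.94, permutation p = 0.00021, adjusted p = 0.0252), the 1 of 120 pairs with an adjusted p under 0.05 by rho. That call was lost in 11 of 15 alternatives. The coefficient turned to r = 0.32 and rho = 0.22 when tumors were scaled to equal column totals, and the adjusted p of rho was 0.429 after quantile normalization (rho = -0.66), 0.146 within groups and 0.0756 to 0.143 by permutation when wildtype replicate 2, 4 or 5 or gene trap replicate 1, 2, 3 or 4 was left out. Endothelial markers (*Pecam1* the most and *Erg* the least abundant) summed to 2967 to 5259 in wildtype and 2717 to 4940 in gene trap tumors, and 7 of 8 had estimates below 0.

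Of the immune markers, none had an adjusted or unadjusted p under 0.05 between the groups by limma. Macrophage markers (10 tested, 6 below 0) summed to 12060 to 17552 in wildtype and 12168 to 16933 in gene trap tumors (*C1qa* and *Fcgr1*). T and NK cell markers (8 of 10 tested, 5 below 0, *Cd4* and *Klrb1c*) summed to 132 to 338 and 118 to 541, and B cell markers (3 of 8 in the table, all above 0, *Cr2* and *Fcmr*) to 18 to 159 and 19 to 506. Dendritic cell markers (8 tested, 2 below 0, *Itgax* and *Xcr1*) summed to 884 to 1158 and 877 to 1230, and neutrophil markers (5 of 8 tested, 2 below 0, *S100a8* and *Mmp8*) to 322 to 1000 and 352 to 2087. Among stromal and other markers, 2 of 10 fibroblast genes (*Col3a1* and *Fap*), 5 of 5 tested adipocyte genes (*Fabp4* and *Pparg*) and 2 of 7 skeletal muscle genes (*Acta1* and *Actn3*) had estimates below 0, and the sums of each of these lists overlapped between the groups. The part of these cells in the levels of the sensor genes was not tested.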

How the data were processed

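Total RNA of mouse mammary tumors was sequenced after TruSeq stranded library preparation. The authors deposited 1 table of estimated counts, a signal per gene that had been scaled between tumors by median ratios. The submitters' processing notes name Partek, STAR (version 2.7.8a), DESeq2 and the build mm39, and the annotation and counter are not given in the sources used here. Columns had a median ratio of 1.0052 to 1.0062 to their geometric mean, and values were not whole numbers, so depth is unknown and no interval that needs it is given. Of 16 columns, 10 were matched to a tumor by name. The other 6 matched no label and were not used, and the tumors labeled replicates 6 to 8 of each group were not analysed here. Nothing states that tumors of a group came from separate animals, so p-values measure the spread between these samples.

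Symbols were found for 97.0% of gene IDs. Genes with a mean of at least 10 (21034) were fitted on log2(value + 1) with limma (version 3.58.1, R 4.3.3, variance trend, group as the only factor, Benjamini-Hochberg adjustment over all tested genes). A fold change on this scale understates that of low genes. Exact two-sided permutation used the 252 arrangements of 5 and 5 tumors, and correlations used 100000 permutations (two-sided, adjusted over 45 pairs of sensor genes or 120 pairs with list scores). Transcript lengths and exon overlaps came from GENCODE M21 and promoter windows from RefSeq (GRCm38.p6), an older build than that of the table, so gene coordinates are not given. Scripts were tested on simulated data.

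The sensor genes and lists were chosen with earlier results of these data known. The genes named are *Resf1*, the 10 sensor genes, the genes of each functional list with an unadjusted p under 0.05 or else the smallest p, the most and least abundant gene of each marker list, the 2 genes most like each sensor gene and the 5 pairs of sensor genes with the largest r. *Rsad2*, *Cxcl10*, *Krt17*, *Myh11*, *Atrip* and *Chrnb2* were added with their values known. A gene that this rule names is not reported here. The labels do not state that replicate numbers pair the tumors, and the main fit used no pairing. Alternatives were other filters, pseudocounts and scalings, no variance trend, tumor weights, a replicate block and each tumor left out, to which the removal of wildtype replicate 2 with gene trap replicate 2 was added after seeing the data. Figures were drawn with matplotlib (version 3.10.9).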

Additional observations from a re-analysis of the deposited data

Results flagged for a closer look

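*Ifih1* in wildtype replicate 3 was set apart from the other wildtype tumors, with a normalized value of 2821 against 2450 to 2499 in the other 4. It was the 1 value that stood apart among 24 groups of 5 tumors examined (12 measures in each group), where chance gives about 1 in 20, or 1.2 values.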

How the results depend on the processing

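Under all 20 alternatives 0 genes had an adjusted p under 0.05 by limma, with 304 to 692 at an unadjusted p under 0.05 (479 in the fit reported). The median of all genes moved by less than 0.1 on the log2 scale under every scaling. *Resf1* stayed between -0.28 and -0.15, with an unadjusted p under 0.05 in 10 of 20, *Tlr3* between -0.27 and -0.14, and *Sting1* between 0.14 and 0.27. *Ddx58*, *Ifih1*, *Zbp1* and *Eif2ak2* kept their direction as well. The other estimates were near 0 and changed sign in 1 or more alternatives. With a tumor left out they ran from -0.006 to 0.123 for *Cgas*, -0.015 to 0.060 for *Mavs*, -0.078 to 0.059 for *Adar* and -0.205 to 0.001 for *Trex1*. *Mavs* was -0.005 with tumor weights, and without both wildtype replicate 2 and gene trap replicate 2 *Mavs* was -0.005 and *Adar* 0.087. The median of the 24 interferon-stimulated genes ran from -0.409 to -0.137 with a tumor left out. Without wildtype replicate 1, 8 of them had an unadjusted p under 0.05 by limma, as had 635 of all 20999 genes tested there. Of the coefficients with the interferon-stimulated gene score, calculated anew in each alternative, *Mavs* was 0.06 with equal column totals and 0.18 without both tumors, *Sting1* was -0.16 and *Tlr3* -0.43 without both, and leaving out a tumor gave -0.06 to 0.69 for *Cgas* and -0.29 to 0.38 for *Sting1*. *Mavs* with the endothelial score was 0.32 (rho 0.22) with equal column totals. Pairs of sensor genes with an adjusted p under 0.05 numbered 0 as reported, 2 within groups, where that p is approximate, and 0 to 1 with a tumor left out (*Zbp1* with *Trex1*, r = 0.95 without gene trap replicate 5, permutation, adjusted p = 0.0211). The cause of these changes was not tested. Deviations of tumors with the same replicate number correlated between -0.156 and 0.149, which cannot exclude a pairing, and the labels state none. A replicate block gave 0 genes with an adjusted p under 0.05 and 426 with an unadjusted one, with a p of 0.0711 for *Tlr3*, 0.104 for *Sting1* and 0.0446 for *Resf1* by limma. Depth is unknown, so the counting error behind the low values of *Cgas* cannot be given.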
